A study of Mus musculus with 6 samples.

Results

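Of the 2033 gene rows in a table of colon read counts from control and PFOA-exposed mice, 29 carried a Gene Ontology term for G protein-coupled receptor signalling and formed the gene set described here. PFOA (perfluorooctanoic acid) is a persistent fluorinated surfactant. A row was taken if the annotation deposited with the table held the term for the G protein-coupled receptor signaling pathway or that for G protein-coupled receptor activity. Of 41 such rows, 12 that also held a term for the neuronal cell body or for immune or inflammatory processes were left out, as were the gut hormone genes Nts, Insl5 and Pyy, none of which held either term. Of the 29 rows, 17 held the receptor term, 14 the pathway term and 2 both. Only 962 of the 2033 rows carried any GO term, so that receptors without annotation were missed. Listed receptors outside the set are described at the end, whether without annotation, with other terms only or left out.

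The samples were colon tissue of mice (Mus musculus), 3 libraries labelled control and 3 from mice under long-term PFOA. The labels name no strain, sex, age, dose, duration or part of the colon. They speak of 6 frozen mice per group without tying mice to libraries, so the p-values below measure the spread between libraries, which may be technical. The listed counts summed to between 1771120 and 2269892 per library. These sums are not sequencing depths, since the table holds only rows that differ between the groups: on the log2 scale no row has a ratio of mean raw counts between -1.08 and 0.92. All 1608 rows with enough counts passed edgeR's quasi-likelihood test at an adjusted p of 0.05 (100% of the rows tested), so a call below restates how a row entered the table and only its direction, size and spread are informative. Absence of a gene from the table says nothing on whether it changed. Every ± after a log2 fold change is a standard error over 3 libraries per group, and counts are given in the order of replicates 1, 2 and 3. In whole tissue, fewer cells of a type and less RNA per cell cannot be told apart, and without a labelled colon part neither can exposure and position along the colon. All 8 fixed markers of distal or posterior colon were lower in PFOA (summed level 12277 to 17151 CPM, that is counts scaled to a common library total, in control and 203 to 236 in PFOA). Of the 5 listed rows of small intestinal or proximal markers, 4 were higher and Rbp2 was 4.74-fold lower. All 5 rows summed to 434 to 911 CPM in control and 2343 to 3029 in PFOA. These markers differed between the same groups as the genes below, and their part in the results was not tested.

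G protein-coupled receptors are membrane-spanning proteins that, when a hormone, transmitter, nutrient or odorant binds them, switch on heterotrimeric G proteins inside the cell. The alpha subunit then raises or lowers cyclic AMP through adenylyl cyclase or releases calcium through phospholipase C. RGS proteins end the signal by speeding up GTP hydrolysis, and phosphodiesterases break cyclic AMP down. In the gut such receptors set fluid secretion, motility and hormone release in response to nerves, hormones and food. The GO annotation also places Wnt receptors of the frizzled class and secreted proteins with a frizzled-like domain in this group.

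Of the 29 rows, 27 passed the filter on low counts, and 17 of them were lower and 10 higher in PFOA, at an edgeR adjusted p of at most 0.0253. Over all 1608 rows tested, 50.0% were lower and 50.0% higher. The median log2 fold change was -1.23 for the tested rows of the set and -0.03 for all rows tested, while the median size of the change without its sign was 1.66 and 1.76. Of the 14 tested receptors, 8 were higher and 6 lower, whereas of the 13 tested genes of other roles 2 were higher and 11 lower. The difference between these splits was not tested. Both untested rows, Sucnr1 and Gm38058, had higher mean levels in PFOA. The counts of the groups, scaled to CPM, did not overlap in 28 of 29 rows, against 97.1% of all 2033 rows, and Areg was the exception. Groups said below to be apart in a gene thus follow the rule of the table and are no trait of that gene.

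**Figure D1:**
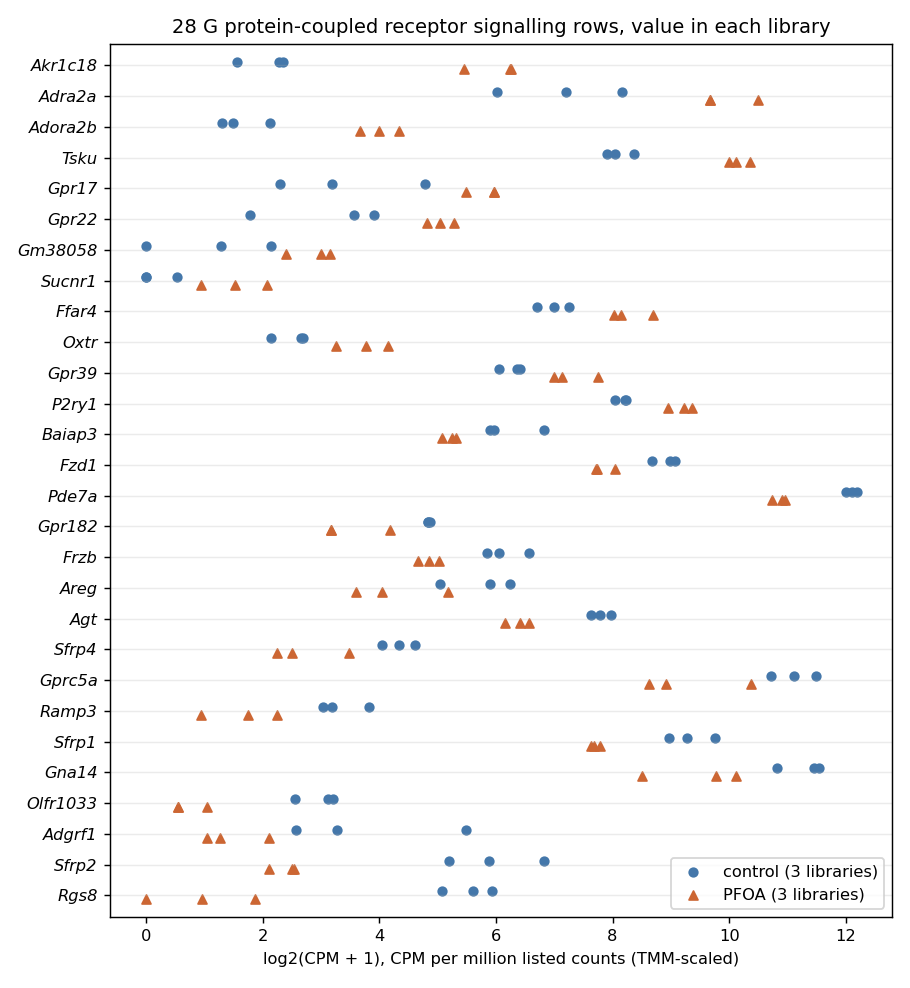
Level of 28 of the 29 genes in each library, as log2(CPM + 1) with CPM relative to the listed counts of the library (x axis); circles are the 3 control and triangles the 3 PFOA libraries, and genes are ordered by the difference of group means. The groups are apart in every gene drawn except Areg, and the spread within a group is wide for Adgrf1 and Gpr17 in control and for Gna14 and Gprc5a in PFOA, among others.

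Counts, which also grow with the length of a gene model, were concentrated in 3 genes of the set. Pde7a, Gna14 and Gprc5a together held 72% to 79% of the set's counts in control and 42.8% to 47% in PFOA. The set as a whole took 1.27%, 1.3% and 1.28% of the listed counts in control replicates 1, 2 and 3 and 0.681%, 0.709% and 0.697% in PFOA replicates 1, 2 and 3. The summed share of the other 26 genes went the opposite way, from 0.269% to 0.357% in control up to 0.374% to 0.389% in PFOA. This sum holds genes of both directions. The largest rises in it were those of Adra2a (1044 counts over the control and 6187 over the PFOA libraries) and Tsku (1756 and 7050). PFOA replicate 1 lay away from the rest of its group in Gna14 and Gprc5a, among others, and control replicate 1 in Adgrf1.

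**Figure D2:**
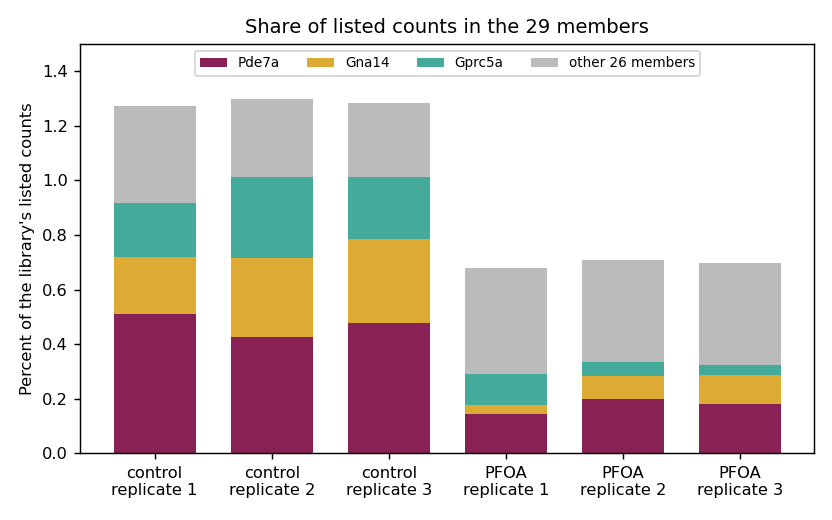
Percent of each library's listed counts that fell in the 29 genes (y axis), split into Pde7a, Gna14, Gprc5a and the other 26 genes; each bar is 1 library. The total is near 1.3% in the control libraries and between 0.681% and 0.709% in the PFOA libraries, and the 3 named genes account for the decline.

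To show the regulatory sequence beside the largest differences, the 250 bases upstream of the RefSeq transcription start (GRCm38.p6) are given for the 2 genes with the largest fall and the 2 with the largest rise among tested genes with a promoter entry. The table of promoters held 19 of the 29 genes. Capitals mark matches, on either strand, to TATAAA (the TATA box), TGACGTCA (the cyclic AMP response element), TTTATG (a site of CDX homeobox factors, which pattern the intestine) or AGGTCA (a nuclear receptor hexamer). No other motif was searched, and none of these letter strings contains another. Rgs8 lies at chr1:153652787-153653036 on the plus strand, Sfrp2 at chr3:83766071-83766320 on the plus strand, Adora2b at chr11:62248734-62248983 on the plus strand and Akr1c18 at chr13:4150647-4150896 on the minus strand.
Rgs8: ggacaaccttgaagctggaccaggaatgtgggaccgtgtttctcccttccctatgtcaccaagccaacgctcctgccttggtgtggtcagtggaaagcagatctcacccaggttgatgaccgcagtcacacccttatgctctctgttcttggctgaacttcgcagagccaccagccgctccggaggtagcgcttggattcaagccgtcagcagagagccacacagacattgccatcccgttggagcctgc
Sfrp2: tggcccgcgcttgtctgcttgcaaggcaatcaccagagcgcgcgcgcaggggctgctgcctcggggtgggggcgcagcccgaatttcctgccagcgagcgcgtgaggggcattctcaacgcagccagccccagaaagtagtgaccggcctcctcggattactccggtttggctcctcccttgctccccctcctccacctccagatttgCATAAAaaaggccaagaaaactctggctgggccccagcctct
Adora2b: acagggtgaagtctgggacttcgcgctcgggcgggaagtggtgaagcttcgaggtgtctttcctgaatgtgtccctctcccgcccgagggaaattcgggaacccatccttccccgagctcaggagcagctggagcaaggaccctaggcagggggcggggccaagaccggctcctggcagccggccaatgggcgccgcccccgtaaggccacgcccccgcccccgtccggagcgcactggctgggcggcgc
Akr1c18: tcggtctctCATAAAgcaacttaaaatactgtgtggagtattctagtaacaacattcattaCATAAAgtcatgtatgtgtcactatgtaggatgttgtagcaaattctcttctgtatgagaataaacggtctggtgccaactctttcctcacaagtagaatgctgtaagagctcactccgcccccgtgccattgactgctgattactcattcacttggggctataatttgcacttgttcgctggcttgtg
The 250 bases of Sfrp2 hold 1 CDX match, 42 bases before the start, and those of Akr1c18 hold 2, at 241 and 189 bases before it, while the printed windows of Rgs8 and Adora2b hold none of the 4 motifs. The TTTATG string occurs in 10.8% of all 32851 promoter windows and in those of 2 of the 19 genes. The cyclic AMP element occurs in 1.55% of windows and in 1 of the 19 genes, Areg. TATAAA was found in 12.4% of windows and 5 of the 19 genes, and AGGTCA in 14% of windows and 2 of the 19, Oxtr and Rgs8. The 19 genes have 22 windows, and the Rgs8 match lies in a window of that gene other than the printed one. GC content was 57.2% for Rgs8, 63.6% for Sfrp2, 69.6% for Adora2b and 41.6% for Akr1c18.

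**Figure D3:**
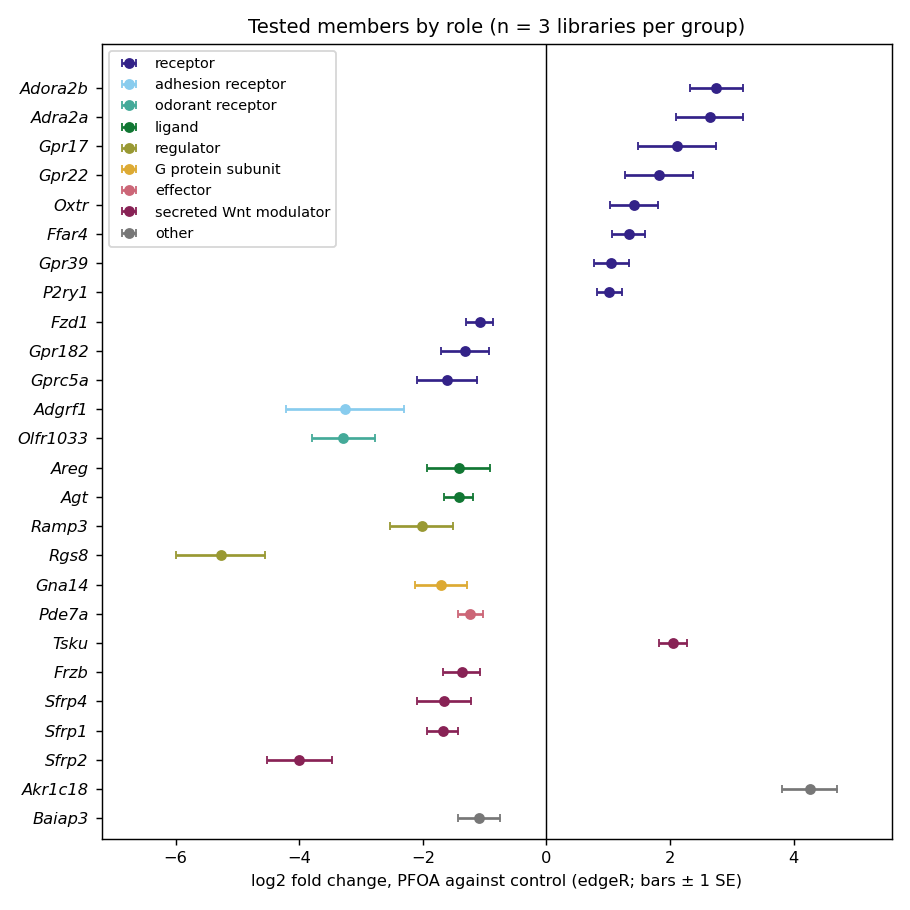
Log2 fold change of PFOA against control for 26 of the 27 tested genes (x axis), grouped and coloured by role; points are edgeR estimates from 3 libraries per group and bars are 1 standard error on each side. Both ligands, both regulators, the G protein subunit and the phosphodiesterase lie below 0, and receptors lie on both sides.

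Adra2a was among the receptors with the largest rise. Adra2a (chromosome 19, 54044151 to 54051094, mm10) encodes the α2A receptor for noradrenaline and adrenaline, which lowers cyclic AMP and is known to restrain secretion in the gut. It had 132, 590 and 322 counts in control replicates 1, 2 and 3, against 2708, 1736 and 1743 in PFOA replicates 1, 2 and 3. All PFOA libraries were above all control libraries, and control replicate 1 was the lowest. The ratio of groups was 6.11-fold (log2 fold change 2.64 ± 0.54, edgeR adjusted p = 0.00265), and the log2 value was 3.25 without control replicate 2. Scaled by the length of the deposited gene model, the mean level of Adra2a was 23.7 CPM per kilobase in control and 148 in PFOA.

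Adora2b and P2ry1, receptors for adenosine and ADP, were higher. They are 2 of the 4 tested rows on the fixed list of prostanoid, purine and lipid mediator receptors, and the other rows, P2ry4 and P2ry6, were lower (log2 fold change -1.39 and -1.21). Adora2b, the low-affinity adenosine receptor that drives cyclic AMP and chloride secretion in colon epithelium, gave 3, 7 and 4 reads in control libraries and 36, 25 and 32 reads under PFOA. Every PFOA library was above every control library, at low counts throughout. This was the largest rise among the tested receptors, at 6.85-fold (log2 fold change 2.75 ± 0.43, edgeR adjusted p = 0.00098). P2ry1, an ADP receptor that acts through phospholipase C and takes part in inhibitory signalling from enteric nerves to muscle, was counted 609, 621 and 581 times in controls and 1227, 1268 and 1061 times under PFOA. Its libraries were close together within each group, and the ratio of 2.02-fold was the smallest in the set (log2 fold change 1.02 ± 0.20).

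Ffar4 and Gpr39, which sense fatty acids and zinc, were higher as well. Of the 35 genes on the fixed list of gut nutrient, bile acid and microbial metabolite receptors, 4 had a row, Ffar4 and Sucnr1 with higher and Gprc5a and Gpr119 with lower levels in PFOA, and Gpr39 is not on that list. Ffar4, the receptor for long-chain fatty acids also called GPR120, had 310, 262 and 228 control counts against 485, 876 and 609 with PFOA, a 2.54-fold ratio (log2 fold change 1.33 ± 0.27). PFOA replicate 2 was the highest library. The deposited gene model of Ffar4 is 4.203 times as long as the GENCODE exons, and its counts may hold reads from outside them. Gpr39, a zinc-sensing receptor, gave 167, 175 and 145 reads in control libraries and 401, 269 and 299 reads under PFOA, 2.05-fold higher. Its call ended without control replicate 3 (edgeR adjusted p = 0.0528, from 0.00934 to 0.0528 over 11 alternatives). Sucnr1, the succinate receptor that marks tuft cells in the intestine, was counted 0, 0 and 1 times in controls and 6, 4 and 2 times under PFOA. These counts were too low for the test. The ratio was 12.4, with a 95% Clopper-Pearson counting interval from 1.83 to 529. None of the 9 fixed tuft cell markers had a row. Of the 13 fixed markers of hormone cells, in which Ffar4 and Gpr39 are known to act, 6 had a row, 3 higher and 3 lower in PFOA. Their summed level was 2957 to 3332 CPM in control and 710 to 1289 in PFOA, and its part in these results was not tested.

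Gpr17, Gpr22 and Oxtr, receptors better known from the nervous system, heart or uterus, were present at low counts and higher in PFOA. The rows of Gpr17 and Gpr22 overlap Lims2 and Cog5 on the opposite strand. Without a stated strand setting, their counts may hold reads of those genes. Gpr17, a receptor annotated for uracil nucleotides and cysteinyl leukotrienes, had 8, 55 and 18 control counts against 115, 94 and 132 with PFOA, 4.34-fold higher (log2 fold change 2.11 ± 0.63). Control replicate 2 was well above the other control libraries, and the log2 value was 3.15 without it. Its call ended without control replicate 3 (edgeR adjusted p = 0.0582, from 0.00232 to 0.0582 over 11 alternatives). Gpr22, an orphan receptor, gave 5, 29 and 24 reads in control libraries and 51, 68 and 81 reads under PFOA, 3.55-fold higher, with control replicate 1 far below the others. Oxtr, the oxytocin receptor, which acts through phospholipase C and contracts smooth muscle, was counted 7, 11 and 12 times in controls and 16, 27 and 36 times under PFOA, 2.71-fold higher. The groups did not overlap in Gpr22 or Oxtr, as was so for 97.1% of all rows in the table. The Oxtr call ended without control replicate 1 (edgeR adjusted p = 0.0515, from 0.00625 to 0.0515 over 11 alternatives). No row of the 10 fixed enteric neuron markers was listed. Of the 4 glial markers only Gfap had a row, at 15.9 to 18.5 CPM in control and 49.8 to 60.6 in PFOA, and of the 7 smooth muscle markers only Cnn1, at 2546 to 5907 CPM in control and 1475 to 2089 in PFOA. Ano1, the listed marker of the 2 for interstitial cells of Cajal, stood at 10603 to 14910 CPM in control and 1224 to 2226 in PFOA. Their part in these results was not tested.

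Of the 6 receptors that were lower in PFOA, Gprc5a was by far the most abundant. Gprc5a, an orphan class C receptor induced by retinoic acid and expressed in epithelia, had 3459, 5934 and 4909 control counts against 2490, 1033 and 846 with PFOA. PFOA replicate 1 kept the most counts, yet lay below every control library. The ratio was 3.18-fold (log2 fold change -1.61 ± 0.48, edgeR adjusted p = 0.0122), and the log2 value was -2.40 without PFOA replicate 1. Per kilobase of the deposited gene model, Gprc5a had the highest mean of the receptors in both groups, at 962 CPM in control and 314 in PFOA. In control the next receptors by this measure were Fzd1 (115) and P2ry1 (66.7), and in PFOA they were Adra2a (148), P2ry1 (136), Fzd1 (54.3) and Ffar4 (54). In PFOA the libraries of Gprc5a and Adra2a overlap on this scale, as do those of Adra2a and P2ry1 and those of Fzd1 and Ffar4, so the order within these pairs is not beyond their spread. The order also depends on the gene model. Per kilobase of GENCODE exons, the mean of Ffar4 was 90.5 CPM in control, above P2ry1, and 227 in PFOA, next to 212 for Adra2a and 354 for Gprc5a, and Ffar4 lay above Gprc5a in PFOA replicates 2 and 3.

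Markers of epithelial cells went both ways, while the listed markers of T and NK cells were all higher. Of the 8 fixed markers of absorptive epithelium, 4 had a row. Car1, Fabp2 and Alpi were 6.55-fold, 14.4-fold and 19-fold higher in PFOA. Slc26a3, a chloride exchanger, was 4.8-fold lower, with 44864, 60351 and 56990 control counts against 18783, 6770 and 7256 with PFOA. PFOA replicate 1 was the highest of its group for Slc26a3, as for Gprc5a. It was also the highest for Car1 and Fabp2, which were higher in PFOA, and not for Alpi. The summed level of the 4 was 24688 to 37830 CPM in control and 24510 to 82358 in PFOA. The goblet cell list had 8 rows for 6 genes, as Muc2 has several rows. The 4 higher rows were those of Muc2 and Spdef, and the 4 lower were Clca1, Fcgbp, Zg16 and Tff3. The summed level of the list, in which each Muc2 row enters, was 143700 to 263089 CPM in control and 149298 to 331419 in PFOA. All 4 listed rows of the 8 T and NK cell markers were higher, from 29.9 to 58.8 CPM in sum in control and from 87 to 252 in PFOA. Of the 5 fixed adipocyte markers, 3 had a row, all higher in mean level in PFOA but with overlapping groups. Their summed level was 1.36 to 18 CPM in control and 1.41 to 372 in PFOA. In PFOA replicates 1, 2 and 3, Adipoq had 54, 0 and 150 counts, Plin1 61, 0 and 128, and Cfd 225, 3 and 522. The part of these markers in the receptor results was not tested.

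The other receptors described here that were lower belong to several classes. Fzd1, a frizzled receptor for Wnt proteins, gave 1109, 845 and 1113 reads in control libraries and 392, 449 and 567 reads under PFOA, 2.11-fold lower (log2 fold change -1.08 ± 0.22). Gpr182, a receptor of endothelial cells, was counted 58, 57 and 61 times in controls and 15, 17 and 37 times under PFOA, 2.47-fold lower, with PFOA replicate 3 the highest of its group. Of the 5 fixed endothelial markers only Lyve1, a lymphatic marker, had a row, at 221 to 286 CPM in control and 49.8 to 126 in PFOA, and its part in the Gpr182 result was not tested. Adgrf1, an adhesion class receptor, had 90, 18 and 11 control counts against 2, 7 and 3 with PFOA. Control replicate 1 held most of its reads, and the log2 fold change moved from -3.26 ± 0.95 (edgeR adjusted p = 0.0113) to -1.91 without that library. Olfr1033, an odorant receptor gene, gave 10, 17 and 17 reads in control libraries and 2, 1 and 1 reads under PFOA, 10.7-fold lower. Odorant receptor genes form a large family of similar copies, and its reads may be shared with others.

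Across classes, 8 of the 15 receptor genes have their whole coding sequence in 1 exon (GENCODE M21), a known trait of many such receptors, against 9.97% of 1133 listed protein-coding genes. Among them are Adra2a, Fzd1, Gpr17, Gpr182, Gpr22, Olfr1033 and P2ry1, and they include genes of both directions.

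The 4 genes of the set that regulate receptors or pass their signal on, Rgs8, Ramp3, Gna14 and Pde7a, were all lower in PFOA. Rgs8, an RGS protein that shortens signals of the inhibitory G protein class, was counted 124, 68 and 105 times in controls and 5, 2 and 0 times under PFOA (its upstream bases are printed above). The PFOA libraries were close to empty, and the ratio of 41.2-fold was the largest in the set (log2 fold change -5.27 ± 0.72, edgeR adjusted p = 0.00062). The log2 value was -6.51 without PFOA replicate 1 and -4.67 without PFOA replicate 3. Rgs8 (ENSMUSG00000042671.12) lies on chromosome 1 at 153653025 to 153700323 (mm10). Ramp3, an accessory protein that takes the calcitonin receptor-like receptor to the cell surface and sets its ligand preference, had 27, 15 and 18 control counts against 7, 5 and 2 with PFOA, 4.16-fold lower (log2 fold change -2.02 ± 0.51). Both regulators had low counts, and their groups did not overlap, as was so for 97.1% of all rows in the table.

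Gna14 (chromosome 19, 16435762 to 16610820) encodes an alpha subunit of the Gq class, which activates phospholipase C. It gave 3712, 5814 and 6598 reads in control libraries and 677, 1855 and 2383 reads under PFOA, 3.18-fold lower (log2 fold change -1.70 ± 0.42, edgeR adjusted p = 0.00596). PFOA replicate 1 was the lowest of all libraries, at well under the other PFOA values. Pde7a, a phosphodiesterase specific for cyclic AMP, was counted 9054, 8499 and 10328 times in controls and 3192, 4235 and 4116 times under PFOA, 2.34-fold lower (log2 fold change -1.23 ± 0.20, edgeR adjusted p = 0.0012). Its libraries varied little within each group. The deposited gene models of both are far longer than their exons, 14.028 times for Gna14 and 8.431 times for Pde7a, and include assembled transcripts inside introns. Their high counts may thus hold intronic reads, and per-length levels depend on the model: the control mean of Gna14 was 52.6 CPM per kilobase of the deposited model and 737 per kilobase of GENCODE exons, and that of Pde7a was 67.2 and 567.

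The ligand precursors were lower too. Agt encodes angiotensinogen, from which the angiotensin peptides are cut. It had 515, 453 and 437 control counts against 175, 150 and 182 with PFOA, 2.69-fold lower (log2 fold change -1.42 ± 0.23, edgeR adjusted p = 0.00111), with tight groups. Areg encodes amphiregulin, a ligand of the epidermal growth factor receptor, which is a kinase and not a G protein-coupled receptor. It gave 66, 155 and 130 reads in control libraries and 66, 33 and 24 reads under PFOA, and control replicate 1 and PFOA replicate 1 overlapped. Its fitted log2 fold change of -1.42 ± 0.51 was called in the full comparison (edgeR adjusted p = 0.0253). The call ended in 4 of 11 alternatives (edgeR adjusted p from 0.00388 to 0.0912), and without PFOA replicate 1 the log2 value was -2.08. The 4 were the replicate block (edgeR adjusted p = 0.0511) and the removal of control replicate 2, PFOA replicate 2 or PFOA replicate 3 (0.0817, 0.0912 and 0.078).

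All 4 genes of secreted frizzled-related proteins in the set were lower in PFOA. These proteins carry a frizzled-like domain that binds Wnt proteins outside the cell, and they are no membrane receptors. Sfrp2 (chromosome 3, 83766321 to 83774316) was counted 231, 74 and 128 times in controls and 9, 7 and 10 times under PFOA. Control replicate 1 was the highest, and the PFOA libraries were alike. At 16.2-fold it showed the largest difference of the family (log2 fold change -4.00 ± 0.53, edgeR adjusted p = 0.000533). Sfrp1 was the most abundant of them, with 1781, 1030 and 1370 control counts against 410, 419 and 438 with PFOA, 3.2-fold lower (log2 fold change -1.68 ± 0.25). Sfrp4 had 32, 40 and 52 control counts against 19, 8 and 10 with PFOA, 3.25-fold lower, and Frzb, also called Sfrp3, had 117, 194 and 144 against 52, 67 and 52, 2.58-fold lower. None of the 4 had overlapping groups, as was so for 97.1% of all rows in the table. Per kilobase of the gene model, the control means ran from 151 CPM for Sfrp1 through 31.9 for Sfrp2 and 22.2 for Frzb to 4.66 for Sfrp4. The PFOA means were 47.3 CPM for Sfrp1, 8.59 for Frzb, 1.97 for Sfrp2 and 1.48 for Sfrp4. On this scale the libraries of Sfrp2 and Frzb overlapped in control and those of Sfrp2 and Sfrp4 in PFOA, so their order is not beyond the spread. None of the 5 fixed fibroblast markers (Pdgfra, Col1a1, Col1a2, Dcn and Lum) had a row in the table.

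Tsku (chromosome 7, 98350668 to 98361328), which encodes the secreted leucine-rich protein tsukushi, another modulator of Wnt signalling, went the other way. It gave 489, 685 and 582 reads in control libraries and 2064, 2161 and 2825 reads under PFOA, 4.14-fold higher (log2 fold change 2.05 ± 0.23, edgeR adjusted p = 0.000297). The lowest PFOA library held more than 3 times the counts of the highest control library.

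The other rows reached the set through indirect annotation. Akr1c18 (chromosome 13, 4132615 to 4150654), a steroid dehydrogenase that inactivates progesterone, was counted 4, 8 and 9 times in controls and 80, 161 and 160 times under PFOA (its upstream bases are printed above). The groups were far apart, and its 19.7-fold ratio was the largest rise in the set (log2 fold change 4.26 ± 0.44, edgeR adjusted p = 0.000219). The family of Akr1c genes has near-identical members, so that reads may be shared. Baiap3, a protein of vesicle release whose row also takes in the microRNA gene Mir3547, had 231, 127 and 129 control counts against 73, 70 and 79 with PFOA, 2.13-fold lower. Gm38058, a locus without an established product that lies on chromosome 1 at 64736240 to 64740607 on the plus strand, overlaps the frizzled receptor gene Fzd5 on the minus strand and is annotated with the Fzd5 protein. It gave 7, 3 and 0 reads in control libraries and 8, 15 and 17 reads under PFOA, too few for the test. Fzd5 itself has no row, and without a stated strand setting reads of the pair cannot be told apart. Of the 29 genes, 13 overlap a gene on the opposite strand, among them Gna14, Pde7a, Rgs8, Agt, Sfrp2 and P2ry1. The receptors Gpr17, Gpr22, Gpr182 and Gpr39 are among them too, overlapping Lims2, Cog5, Zbtb39 and Lypd1 in that order. Reads of these pairs cannot be told apart either.

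The rest of the pathway was examined through 8 lists of 370 genes, of which 30 had a row, 13 of them in the set. Of the other 17 rows, 9 were higher and 8 lower in mean level, and 8 and 8 of the 16 tested passed in each direction. Single lists were thinly represented. Of 33 G protein subunits, Gna14 alone had a row, and of 49 RGS proteins, kinases, arrestins and accessory proteins only Rgs8 and Ramp3. The cyclic AMP list of 42 genes had 4 rows, with 3 lower and 1 higher. Prkacb, a catalytic subunit of protein kinase A, was counted 3558, 3328 and 2922 times in controls and 1133, 1325 and 1248 times under PFOA (log2 fold change -1.36 ± 0.20). Its partner Prkar2b, a regulatory subunit, had 256, 186 and 228 against 98, 87 and 85. Both kinase subunits were thus lower along with Pde7a, while Pde1c, a calcium-dependent phosphodiesterase, was 2.79-fold higher. Of 46 genes of phospholipase C, calcium release and protein kinase C, only Dgkg, a diacylglycerol kinase, had a row, and it was 2.01-fold higher.

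Receptors with a row but outside the set numbered 13 in the 4 receptor lists (200 genes, 22 rows). Of these, 5 rows carried no GO term, 6 carried other terms only, and 2, Htr2b and Fzd3, had been left out for one of the additional terms. By mean level 7 were higher and 6 lower. Htr4, the serotonin receptor that promotes motility and secretion, was among the most abundant, with 3335, 4565 and 4399 control counts against 919, 931 and 864 with PFOA (log2 fold change -2.13 ± 0.22, edgeR adjusted p = 0.000219). Its relatives Htr7 and Htr2b went the other way, at 2.95-fold and 3.49-fold higher. Htr7 had only 7, 10 and 5 control counts against 30, 15 and 18 with PFOA.

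The neuropeptide Y receptors differed in the same manner. Npy1r had 263, 292 and 314 control counts against 35, 43 and 44 with PFOA, 6.91-fold lower. Npy2r had 21, 24 and 28 against 117, 79 and 150, 4.89-fold higher. Receptors of the pair thus changed in opposite directions. Lower as well were Chrm2, the muscarinic receptor of smooth muscle (2.69-fold), and P2ry6 (2.29-fold) and P2ry4 (2.71-fold), which bind uracil nucleotides. Gpr119, a lipid receptor of hormone cells, was 4.75-fold lower, at 14, 22 and 13 control counts against 4, 2 and 4 with PFOA. Higher were Ntsr1, the neurotensin receptor (4.52-fold), Glp1r, the receptor of the hormone GLP-1 (3.92-fold), and Fzd3 (3.07-fold). Ntsr1 had only 7, 4 and 7 control counts against 22, 29 and 28 with PFOA. Glp1r had 3, 22 and 5 against 29, 47 and 38, with control replicate 2 near the PFOA libraries. Rxfp1, the relaxin receptor, gave 3, 0 and 0 reads in control libraries and 4, 8 and 10 reads under PFOA and was not tested. Of the 20 tested rows of these lists, 10 were higher and 10 lower, 8 of the 20 being genes of the set.

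**Figure D4:**
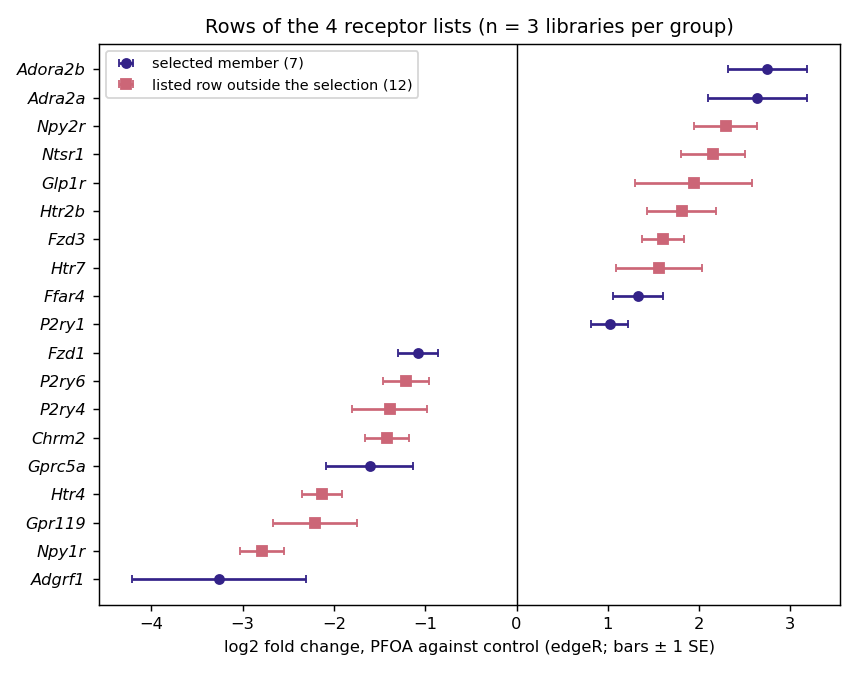
Log2 fold change of PFOA against control (x axis) for 19 of the 20 tested rows of the 4 receptor lists; circles are 7 genes of the set, squares the 12 rows the annotation rule did not take, and bars are 1 standard error on each side (n = 3 libraries per group). Some receptors of the same transmitter, such as Npy2r and Npy1r, or Htr7 and Htr4, lie on opposite sides of 0. Others, such as Htr7 and Htr2b, or P2ry4 and P2ry6, lie on the same side.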

How the data were processed

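The authors deposited 1 table of raw read counts for 2033 gene rows in 6 colon libraries (3 control, 3 PFOA). HISAT2, HTSeq and the mm10 build appear in the submitters' processing notes, with no version or order, and the labels' protocols name a SMARTER mRNA-Seq kit. How rows were selected, strand use and multi-mapping: not given in the sources used here. Columns were matched to samples by their descriptions.

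Genes were selected by GO terms in the deposited annotation, and roles were assigned by hand. Members and lists were chosen with earlier results of these data known. The test was edgeR 4.0.16 in R 4.3.3, with filterByExpr, TMM scaling (factors 0.858 to 1.161), glmQLFit and glmQLFTest, 2-sided, without covariates, Benjamini-Hochberg adjustment over 1608 rows, threshold 0.05. Standard errors are the absolute log2 fold change over the square root of F. Folds are ratios of summed counts over scaled totals. Counting intervals cover counting error only. Gene structures are from GENCODE M21 and promoters from RefSeq. Named were, per role, up to 5 genes per direction with the largest change and at least 30 counts, and the 5 most abundant. One gene of the set is counted but not reported here. All other named members and list rows were named after their values were seen. A planned likeness by correlation was left out, as 6 libraries in 2 groups are too few. Alternatives were DESeq2 1.42.0, a replicate block, other scalings, no filter, other GO choices and each library left out. The edgeR step was tested on simulated data.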

Additional observations from a re-analysis of the deposited data

How the results depend on the processing

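All 297 alternative values of the 27 tested genes kept their direction, and 290 kept their call. The rows of the table differ between these same libraries by selection, so kept directions and calls were largely fixed beforehand. They are no independent support for a difference. The 7 lost calls belong to Areg, Oxtr, Gpr17 and Gpr39 and are given with those genes, and 23 genes kept their call in every alternative run. Taking only rows with the receptor activity term gave 6 genes higher and 9 lower in PFOA, in place of 10 and 17, because fewer rows are taken, and keeping the rows with the excluded terms gave 15 and 20 of 35 tested. With 1 library left out, between 8 and 11 genes were higher and 16 or 17 lower, while over all rows between 655 and 782 were called higher and between 758 and 804 lower (655 and 795 without control replicate 3). Under the block, 780 and 799 of all rows were called. The sample titles number the replicates and state no pairing between the groups. Correlations of deviations were 0.114, -0.030 and 0.102 for same-numbered replicates 1, 2 and 3. Between replicates of unlike number they ran from -0.150 to 0.118, so these values do not settle whether replicates were paired. Under the replicate block, 10 genes were higher and 16 lower, the Areg call being the one lost. The median log2 fold change of all rows moved from -0.031 to -0.245 with library totals alone and to -0.216 with DESeq2, and no gene of the set changed direction under either. The low counts of Sucnr1, Gm38058, Olfr1033 and Oxtr, and outside the set those of Rxfp1, Htr7, Ntsr1, Glp1r and Gpr119, limit the precision of their ratios.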
